A study of Homo sapiens with 12 samples.

Results

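Cells lacking GPATCH4 were set against wild-type cells by RiboMeth-seq, which measures 2'-O-methylation along ribosomal RNA and small nuclear RNA. The 6 libraries compared were those labelled WT, replicates 1 to 3, and those labelled GP4KO, replicates 1 to 3, out of 12 in the series, and they were chosen by these labels alone. Both groups were Flp-In T-Rex HEK293 cells, an embryonic kidney line of human origin made for inserting inducible transgenes, grown in high glucose medium with foetal calf serum. The WT cells carry no labelled change, and the knockout cells carry the genotype GPATCH4 KO. The labels do not give the number of knockout clones, and they call the replicates biological without naming separate cultures, so the p-values measure only the spread between these libraries. The other libraries came from wild-type cells treated with a non-targeting siRNA (siNT) or with one that targets DHX15 (siDHX15), also in 3 replicates each. They enter here through the shared estimate of spread and as side values. The assay reads only abundant non-coding RNA, so neither the loss of GPATCH4 nor the identity of the cells could be checked in these data.

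In 2'-O-methylation a methyl group is placed on the ribose of a nucleotide. In ribosomal RNA most such marks are set by fibrillarin, the methyltransferase of box C/D small nucleolar ribonucleoproteins, and a guide RNA pairs with the target sequence to choose the nucleotide. Related guide RNAs of the Cajal body, the scaRNAs, direct many of the marks in spliceosomal small nuclear RNA (snRNA). RNA helicases help guide RNAs to bind to and leave the ribosomal precursor, and GPATCH4 is a nucleolar protein with a G-patch, a motif that binds and stimulates DEAH-box helicases such as DHX15.

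The measured quantity was the methylation score of a site, a fraction from 0 to 1. Alkali cuts RNA poorly after a 2'-O-methylated nucleotide, so few reads begin or end there. The score is 1 minus the read ends at the site over a weighted mean of the 6 positions on each side, with negative values set to 0. A score of 1 means no read ends at the site, and a score of 0 means at least as many as at its neighbours. Scores were available for 141 sites, of which 41 were in 18S rRNA, 68 in 28S rRNA, 2 in 5.8S rRNA and 30 in spliceosomal snRNA, from U1 to U6. The 6 libraries held between 7437847 and 16314082 read ends. Around a ribosomal site the neighbours carried read ends with a median over sites between 1251 and 3056 per library, and between 63.3 and 260 for snRNA sites. No binomial interval is given, because the score compares counts at different positions.

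Sequences are shown for the 6 sites that kept under 20% of the WT score, for 28S-Gm4494, which has close listed neighbours, and for the lower site of U2, to place each mark among its neighbours. They are the letters of the deposited tables, written 5′ to 3′ with every listed methylation site in capitals, and positions are counted from the 5′ end of each RNA. No genome coordinates are given, because the ribosomal genes are repeated and the tables number the RNA itself.
18S positions 151 to 182, holding Am159, Am166, Um172 and Cm174: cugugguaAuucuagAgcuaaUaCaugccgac
18S positions 501 to 520, holding Gm509, Am512 and Cm517: cccggggaGguAgugaCgaa
18S positions 789 to 807, holding Cm797 and Um799: gcccgaagCgUuuacuuug
18S positions 1794 to 1814, holding Um1804: cggucgaacuUgacuaucuag
28S positions 2778 to 2822, holding Am2786, Cm2803 and Am2814: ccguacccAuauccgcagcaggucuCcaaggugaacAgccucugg
28S positions 4484 to 4504, holding Gm4494, Um4498 and Gm4499: accaagcguuGgauUGuucac
U2 positions 37 to 57, holding Cm40 and Um47: uauCuguucuUaucaguuuaa

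Most of the changes in the knockout were lower methylation scores. Of 141 sites, 35 had a lower score (24.8%) and 1 a higher score (0.709%) at an adjusted p under 0.05 (limma, Benjamini-Hochberg over all sites). These percentages are the background for the counts that follow. The median difference, knockout minus WT, was -0.331 over the 35 lower sites and -0.00607 over all sites. Among the 105 sites not past the threshold, 74 differed by less than 0.05 and 48 still had a mean of 0.9 or more in the knockout. The knockout kept under 20% of the mean WT score at 6 of the 35 sites, between 20% and 50% at 13, between 50% and 80% at 10, and 80% or more at 6. When libraries were centred to a common median deviation, a scaling that moves the median difference to 0.0226, the split was 33 lower and 13 higher.

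**Figure D1:**
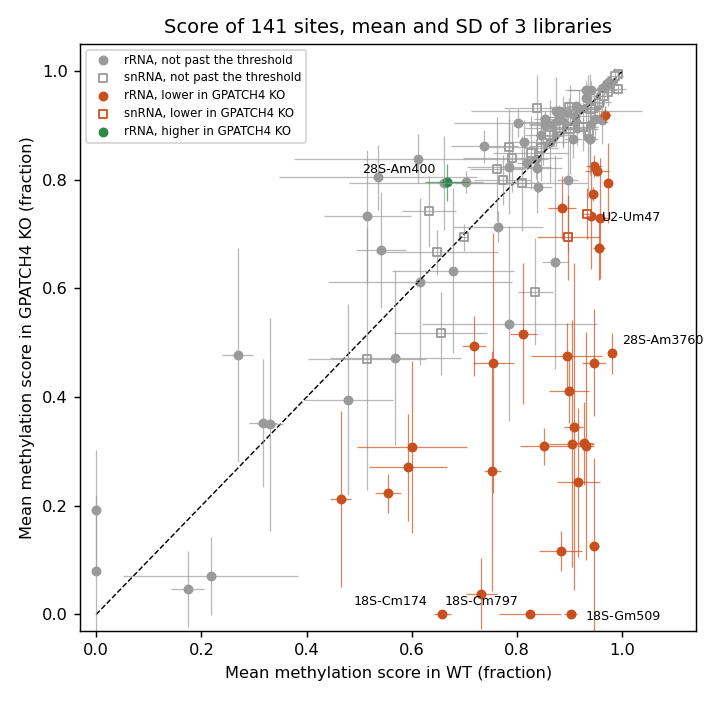
Mean methylation score of each of the 141 sites in WT (x axis) and in the GPATCH4 knockout (y axis), both as fractions, with the SD of 3 libraries as bars; circles are rRNA sites, squares snRNA sites, and colour marks the limma call. The 35 lower sites lie below the dashed line of equality, down to a mean of 0 at 18S-Gm509, 18S-Cm797 and 18S-Cm174, while most other sites follow that line.

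Nearly all of the signal was lost at 6 sites. At 18S-Gm509 the score was 0.897, 0.893 and 0.916 in WT replicates 1, 2 and 3 and 0 in every knockout replicate, the largest decrease of all at -0.902 (SE 0.0243, adjusted p = 1.48e-09). Its WT libraries held 152, 67 and 75 read ends at the site against neighbour means of 1478, 628 and 891. The knockout libraries held 1367, 733 and 608 against 1137, 700 and 523. With 5′ and 3′ ends summed, each of them thus had slightly more read ends at the site than around it. At 18S-Cm797 the WT scores were 0.858, 0.857 and 0.756, and all knockout scores were 0. Read ends at that site were 1.06, 1.17 and 1.66 times the neighbour mean in knockout replicates 1, 2 and 3. 18S-Cm174 went from 0.647, 0.677 and 0.650 to 0 in each knockout library. There the knockout had more read ends than the neighbours by a wide margin, 2.46, 2.20 and 1.80 times their mean. Because negative values are set to 0, the scores hide the spread between knockout libraries at these 3 sites, and their standard errors come without it. With negative scores kept, the differences at 18S-Gm509, 18S-Cm797 and 18S-Cm174 were -1.04, -1.12 and -1.81, with adjusted p-values from limma of 2.22e-08, 6.92e-05 and 2.26e-06.

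The other near-complete losses kept a trace of signal in at least 1 knockout library. 18S-Um799, 2 nucleotides from Cm797, scored 0.946, 0.955 and 0.936 in WT and 0.0708, 0.308 and 0 in knockout replicates 1, 2 and 3, a difference of -0.819 (SE 0.0637, adjusted p = 3.16e-06). 28S-Cm2803 had WT scores of 0.916, 0.836 and 0.896 and knockout scores of 0.154, 0.118 and 0.0796, close together and far from WT. 18S-Um1804, near the 3′ end of the small subunit RNA, scored 0.703, 0.730 and 0.762 in WT and 0.114, 0 and 0.000344 in the knockout. At all of these sites the lowest WT library lay at least 0.590 above the highest knockout library.

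**Figure D2:**
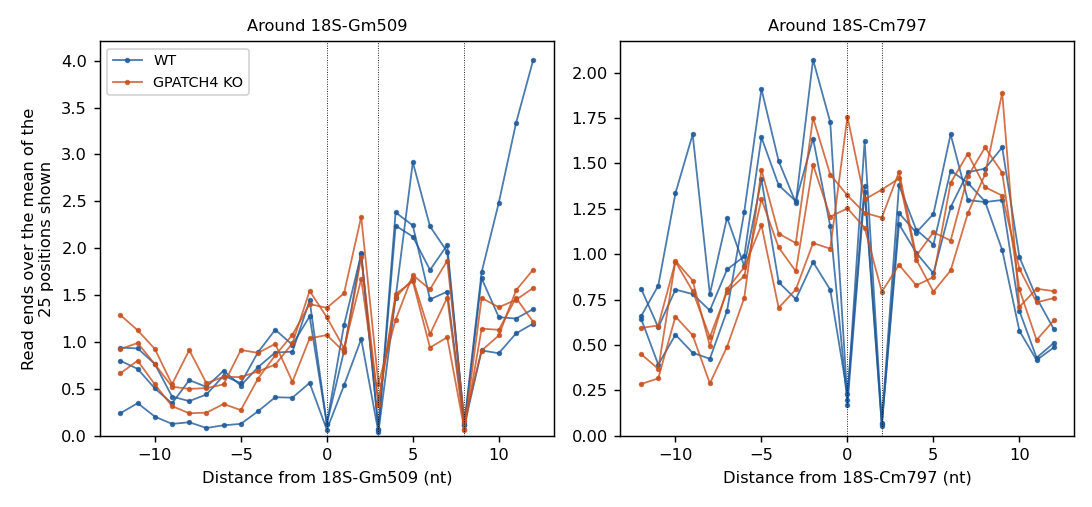
Read ends at each position, divided by the mean of the 25 positions shown, against distance in nucleotides from 18S-Gm509 (left) and 18S-Cm797 (right), with 1 line per library and listed sites as dotted lines. WT lines drop to near 0 at Gm509, Cm797 and Um799 and the knockout lines do not, while both groups drop at Cm517 (distance 8, left); WT replicate 3 stands apart at the right edge of the left panel.

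Not every listed site within a few nucleotides of a lower site passed the threshold. In the stretch of 18S around Gm509, Am512 fell only in part, from 0.954, 0.946 and 0.968 in WT to 0.694, 0.722 and 0.608 in the knockout, a difference of -0.281 (SE 0.0258, adjusted p = 1.02e-05). Cm517 in the same stretch scored 0.924, 0.928 and 0.943 in WT and 0.946, 0.950 and 0.898 in the knockout, and the groups overlapped. In the stretch from 151 to 182, Am159 and Am166 fell along with Cm174, but Um172, 2 nucleotides from Cm174, scored 0.801, 0.824 and 0.666 in WT and 0.732, 0.727 and 0.681 in the knockout (adjusted p = 0.429 in limma). Um172 did become a lower call when other listed sites were left out of the neighbours, without WT replicate 3, and from read 3′ ends alone. 28S-Gm4494 fell from a mean of 0.932 to 0.310, whereas Um4498 was at 0.913 in WT and 0.896 in the knockout and Gm4499 at 0.801 in WT and 0.905 in the knockout, neither past the threshold. 28S-Cm2364 fell from 0.941 to 0.733, beside Gm2363 and Am2362. The knockout scores of Gm2363 and Am2362 all lay above their WT scores, by mean differences of 0.0208 and 0.0587 that did not pass the threshold. Both were higher calls with each library centred. That setting adds the same amount to every difference, moving the median over all sites from -0.00607 to 0.0226. Other listed sites near a called site that stayed short of the threshold included 18S-Gm1328, 18S-Cm1440, 18S-Gm436, 18S-Am1383, 28S-Am398, 28S-Am1323, 28S-Am3867, 28S-Cm2823 and U2-Cm40, with differences between -0.147 and 0.208. Of these, 18S-Cm1440 was a lower call from read 3′ ends alone (-0.414, adjusted p = 0.00545 in limma) and without WT replicate 1, and 28S-Cm2823 was one on the logit scale and in edgeR. The score of a site is built from the 6 positions on each side, so a lost mark nearby changes its denominator. With other listed sites left out of the neighbours, all 35 lower calls were kept, and 36 sites were lower in total.

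In 18S rRNA, the RNA of the small subunit, 17 of 41 sites were lower, and in 28S rRNA, that of the large subunit, 15 of 68. The shares, 41.5% and 22.1%, stand beside 24.8% over all sites, and their difference was not tested. Lower sites were spread over the whole length of 18S, with 4 of 9 from 18S-Am27 to 18S-Um354, 5 of 13 from 18S-Um428 to 18S-Gm644, 3 of 6 from 18S-Am668 to 18S-Am1031 and 5 of 13 from 18S-Cm1272 to 18S-Um1804. In 28S they were 2 of 14 from 28S-Am398 to 28S-Um2043, 7 of 15 from 28S-Cm2350 to 28S-Gm2875, 5 of 21 from 28S-Gm3627 to 28S-Cm4054, 1 of 12 from 28S-Gm4196 to 28S-Cm4536 and 0 of 6 from 28S-Am4571 to 28S-Gm4637. The 0 calls of the last region rest on limma at the adjusted threshold, and its differences ran from -0.0536 to 0.134 (unadjusted p under 0.05 at 1 site, 28S-Gm4623, named after its values were seen, edgeR adjusted p under 0.05 at 0 sites). From read 5′ ends alone 28S-Am4571 of this region was a lower call (-0.0621, adjusted p = 0.00653 in limma). In the region before it, 28S-Um4306 (0.873 in WT, 0.648 in the knockout; limma adjusted p = 0.0573) was a lower call on the logit scale, in edgeR and without knockout replicate 1, 2 or 3. Both sites were named after their values were seen. By base, the lower sites were 12 of 44 for adenosine, 8 of 32 for cytidine, 9 of 39 for guanosine and 6 of 26 for uridine.

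**Figure D3:**
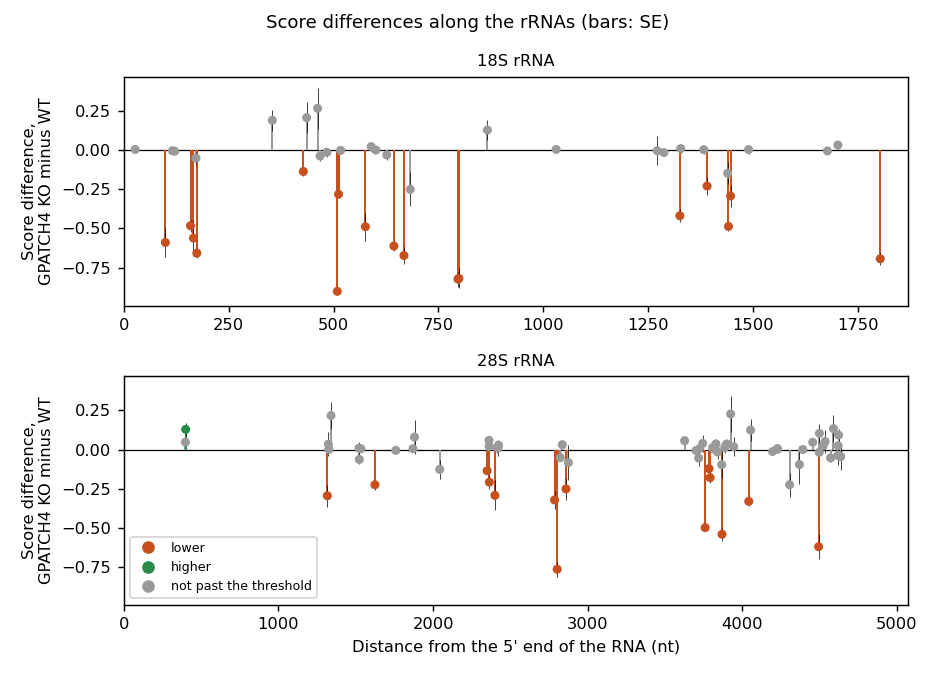
Score difference, knockout minus WT, of every listed site in 18S (top) and 28S rRNA (bottom) against its distance in nucleotides from the 5′ end of the RNA, with the SE from limma as bars and colour for the call. Decreases occur along both RNAs and stand next to sites with differences near 0.

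Partial losses in 18S covered a wide range. 18S-Am668 scored 0.941, 0.940 and 0.869 in WT and 0.391, 0.219 and 0.120 in the knockout, a difference of -0.673 (SE 0.0552, adjusted p = 4.53e-06). 18S-Gm644 went from 0.910, 0.930 and 0.943 to 0.395, 0.244 and 0.307. These sites kept 26.6% and 34.0% of the mean WT score, and no library of one group came near the other group.
Scores of 0.874, 0.880 and 0.943 in WT and 0.480, 0.389 and 0.367 in the knockout were measured at 18S-Um1442. 18S-Am159 had 0.924, 0.943 and 0.971 in WT and 0.560, 0.363 and 0.467 in the knockout, and 18S-Um1326 had 0.946, 0.920 and 0.818 and 0.450, 0.431 and 0.545. The knockout mean at these 3 sites was 45.8%, 49.0% and 53.2% of the WT mean.

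At other 18S sites the knockout libraries disagreed with each other. 18S-Am166 scored 0.917, 0.917 and 0.887 in WT but 0.483, 0 and 0.553 in the knockout, where replicate 2 alone was at 0. At 18S-Am576, with 0.735, 0.759 and 0.766 in WT and 0.360, 0.0120 and 0.422 in the knockout, replicate 2 was again near 0 and the others were not. 18S-Am99 showed another order, 0.205, 0.163 and 0.575 in the knockout against 0.867, 0.895 and 0.950 in WT, with replicate 3 the highest. Without knockout replicate 2 the differences at Am166 and Am576 were -0.389 and -0.362, against -0.562 and -0.489 with it, and both passed the threshold either way. The remaining lower sites of 18S were Um428 (0.885 in WT and 0.749 in the knockout), Cm1391 (0.958 in WT and 0.729 in the knockout) and Gm1447 (0.60 in WT and 0.308 in the knockout).

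In 28S rRNA, 28S-Am3760 showed an even partial loss. Its scores were 0.986, 0.976 and 0.977 in WT and 0.437, 0.503 and 0.501 in the knockout, a difference of -0.499 (SE 0.0189, adjusted p = 1.89e-08). On the scale of the counts this was a rise of read ends from 0.0202 to 0.520 of the neighbour mean, since a score near 1 leaves almost no ends at the site. 28S-Gm4494 fell from 0.943, 0.938 and 0.914 to 0.537, 0.125 and 0.268, with a broad spread in the knockout, and 28S-Cm3869 from 0.824, 0.826 and 0.904 to 0.281, 0.299 and 0.348, with a narrow one. Sites that were only partly methylated by score in WT also fell. 28S-Gm4042 had 0.527, 0.575 and 0.560 in WT and 0.203, 0.263 and 0.202 in the knockout, and 28S-Am2786 had 0.593, 0.666 and 0.519 and 0.319, 0.158 and 0.335. At 28S-Gm1316, scores were 0.810, 0.787 and 0.840 and 0.370, 0.560 and 0.619. In each case the highest knockout library was still below the lowest WT library.

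Smaller decreases in 28S were found at Gm1624 (0.719 in WT and 0.494 in the knockout), Cm2350 (0.952 in WT and 0.817 in the knockout), Cm2364, Am3785 (0.947 in WT and 0.825 in the knockout) and Gm3792 (0.973 in WT and 0.794 in the knockout). The WT scores of Cm2350, Am3785 and Gm3792 were above 0.9, and their loss left scores near 0.8. The remaining 3 calls were lost when any single WT library was left out. 28S-Am2400 scored 0.711, 0.780 and 0.775 in WT and 0.594, 0.186 and 0.606 in the knockout, and without knockout replicate 2 the difference shrank from -0.293 to -0.155. Its call held without that library (adjusted p = 0.0182 in limma) and was lost without WT replicate 1, 2 or 3 (adjusted p = 0.0800, 0.129 and 0.114 in limma). With the authors' recalculated values the difference at 28S-Am2400 was -0.209 (adjusted p = 0.00917 in limma). 28S-Cm2860 scored 0.459, 0.449 and 0.486 in WT and 0.362, 0.0408 and 0.235 in the knockout. Its difference of -0.252 became -0.166 without knockout replicate 2 and -0.151 with the library index as a block. WT and knockout libraries share no index sequence, so that fit compares them only through siNT and siDHX15 libraries with the same indexes. The call at 28S-Cm2860 held without knockout replicate 2 (adjusted p = 0.0497 in limma) and was lost without WT replicate 1, 2 or 3 (adjusted p = 0.0630, 0.0603 and 0.0747 in limma). At 28S-Am2814 the decrease was small, from 0.966 to 0.920, and the call was lost without any single library other than knockout replicate 2 (adjusted p between 0.0728 and 0.132 in limma).

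**Figure D4:**
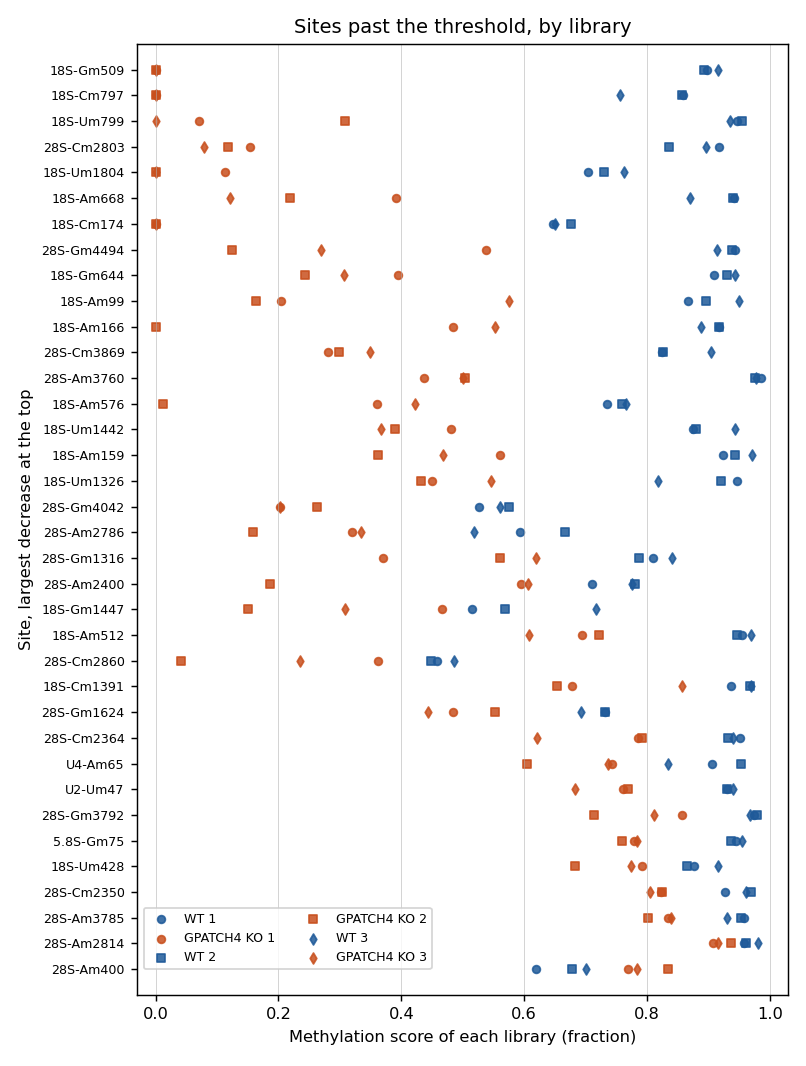
Methylation score (fraction) of each WT and knockout library at the 36 sites past the threshold, ordered by the difference, with marker shape for the replicate number. At every site the 3 knockout scores lie on one side of the 3 WT scores; knockout replicate 2 sits far below the other knockout libraries at 18S-Am166, 18S-Am576 and 28S-Am2400.

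On the score scale, the knockout libraries scattered more than the WT libraries at the sites they lost. Across the 35 lower sites the SD of the 3 knockout scores had a median of 0.0655, against 0.0223 in WT, and it was the larger of the pair at 28 of them. At the 105 sites not past the threshold the medians were 0.0309 and 0.0245. A range over 0.2 between replicates occurred at 11 of the 35 sites in the knockout and at 1 in WT. A single knockout library was the lowest at 32 of the 35 sites, namely replicate 1 at 4, replicate 2 at 18 and replicate 3 at 10. The counts of larger SD, wide range and lowest replicate were not made over all 141 sites. Over all 141 sites replicate 2 also had the lowest median score of the knockout libraries, 0.834 against 0.857 in replicate 1 and 0.852 in replicate 3. Replicate 2 held 8218990 read ends, between the 16236537 and 7437847 of replicates 1 and 3. A score near 1 leaves few read ends at a site, so library differences of the same proportion give a smaller SD there than at a lower score. Spread relative to the read ends was not compared. The part of depth, library or score level in this spread was not tested. Without knockout replicate 2, 35 sites were again lower, of which 34 were among the 35 found with all libraries.

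5.8S rRNA, which pairs with 28S in the large subunit, has 2 listed sites. Gm75 fell from 0.945, 0.936 and 0.954 in WT to 0.779, 0.758 and 0.783 in the knockout, a difference of -0.172 (SE 0.0144, adjusted p = 4.97e-06), and both groups were tight. Um14 was at 0.334, 0.305 and 0.354 in WT and 0.420, 0.127 and 0.501 in the knockout, a spread wider than the difference between the means.

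The snRNAs are the RNA cores of the spliceosome, and 2 of 30 of their sites were lower (6.67%), against 33 of 111 rRNA sites (29.7%) and 24.8% of all sites. The difference between these classes was not tested, and the snRNA sites had fewer read ends around them. U2 recognises the branch point of introns. U2-Um47, for which the deposited overview lists no known guide, scored 0.930, 0.930 and 0.940 in WT and 0.761, 0.768 and 0.683 in the knockout, a difference of -0.196 (SE 0.0237, adjusted p = 9.28e-05). The WT libraries held 79, 43 and 47 ends at this site, the knockout libraries 273, 133 and 193, with neighbour means from 574 to 1144. U4 pairs with U6 before the spliceosome is activated. U4-Am65, with SCARNA5 as its listed guide, scored 0.906, 0.953 and 0.834 in WT and 0.743, 0.604 and 0.736 in the knockout. This site is poorly covered, with 11, 6 and 2 read ends against neighbour means of 42.8, 15.2 and 7.59 in the knockout libraries. Its call was lost without WT replicate 1 or 2 or knockout replicate 2 (adjusted p = 0.0514, 0.0710 and 0.0572 in limma) and in edgeR (adjusted p = 0.104). With libraries thinned to equal depth its difference was -0.100 against -0.203.

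Of the 28 snRNA sites not past the threshold, 22 differed by less than 0.05. The others reached 0.110 upward, at U2-Cm61, and after U6-Cm60 the next lowest was U5-Um41 at -0.137. U2-Am30 (0.936 in WT and 0.891 in the knockout) was a lower call in edgeR and when only sites with a neighbour mean of 100 or more were fitted. These 3 sites, U2-Cm61, U5-Um41 and U2-Am30, were named after their values were seen. The 8 cap-proximal sites of U1, U2, U4 and U5, for which no guide is listed, had differences between -0.0281 and 0.0953. U2-Gm19, a SCARNA9 target, scored 0.698, 0.705 and 0.694 in WT and 0.685, 0.674 and 0.722 in the knockout. Sites with the smallest differences in other RNAs included U1-Am1 (0.991 in WT and 0.966 in the knockout), U5-Um2 (0.926 in WT and 0.898 in the knockout), U4-Cm8 (0.515 in WT and 0.470 in the knockout) and U6-Am47 (0.901 in WT and 0.893 in the knockout). U6-Cm60, listed with SNORD67, had one of the largest differences that missed the threshold. It scored 0.874, 0.819 and 0.812 in WT and 0.564, 0.704 and 0.513 in the knockout, with no overlap. The difference was -0.241 (SE 0.108, adjusted p = 0.149) in limma. From 5′ ends alone, and with only the 6 libraries fitted it did pass (adjusted p = 0.0283 and 0.0311 in limma), whereas 3′ ends alone gave -0.170 (adjusted p = 0.576). With the library index as a block the direction turned, to 0.0556 (adjusted p = 0.828 in limma). As WT and knockout share no index, that fit compares them only through the siNT and siDHX15 libraries. Without any single library U6-Cm60 did not pass (adjusted p from 0.120 to 0.343 in limma).

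Gains were few. 28S-Am400 was the single site called higher, with 0.620, 0.677 and 0.701 in WT and 0.769, 0.834 and 0.784 in the knockout, a difference of 0.129 (SE 0.0395, adjusted p = 0.0368). That call was lost without WT replicate 1 or 2 or knockout replicate 2 or 3 (adjusted p = 0.133, 0.0750, 0.118 and 0.0666 in limma), and the difference was smaller from 5′ ends alone and under the index block, 0.0353 and 0.0484. Separation of the groups was more common downward than upward. All 3 knockout scores lay below all 3 WT scores at 44 sites (31.2%) and above them at 10 (7.09%), 54 in all (38.3%). Of the 105 sites not past the threshold, 9 were separated downward and 9 upward. Differences near 0 were measured at sites such as 18S-Gm601 (0.969 in WT and 0.970 in the knockout), 28S-Gm4392 (0.968 in WT and 0.968 in the knockout) and 28S-Am1326 (0.973 in WT and 0.975 in the knockout).

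Some large differences that missed the threshold involved libraries that disagreed within a group. 18S-Gm683 scored 0.864, 0.898 and 0.594 in WT and 0.331, 0.661 and 0.615 in the knockout. At this site the authors deposited recalculated values for WT replicate 3 and knockout replicates 1 and 3, and with these the site was a lower call at -0.270 (adjusted p = 1.24e-05 in limma). It also passed without WT replicate 3 (-0.346, adjusted p = 0.0422), from 5′ ends alone and with the index block, but without knockout replicate 1 the difference was -0.147 (adjusted p = 0.403). 18S-Cm462 ran the other way, at 0.321, 0.667 and 0.621 in WT and 0.812, 0.741 and 0.860 in the knockout. With the recalculated values of WT replicates 1 and 3 its difference was -0.0659, against 0.268 without them. It was 0.160 without WT replicate 1, 0.0494 with the index block and 0.00129 from 5′ ends alone. 28S-Um3925 scored 0.611, 0.377 and 0.847 in WT and 0.883, 0.841 and 0.794 in the knockout, and there the difference went from 0.228 to -0.0252 with the recalculated values. Without WT replicate 3 it was 0.345 (adjusted p = 0.0395 in limma), and without WT replicate 2 it was 0.110 (adjusted p = 0.647). From 5′ ends alone and with the index block it was 0.0492 and 0.0825. The direction at 18S-Cm462 and 28S-Um3925, and the call at 18S-Gm683, thus depended on which deposited value was used.

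Read 5′ ends and read 3′ ends come from different ends of the fragments, so the losses were read from each kind alone. All 35 lower sites had a negative difference from either kind, and 32 passed the threshold from read 5′ ends and 26 from read 3′ ends. Over all sites, 35 of 141 were lower from 5′ ends and 28 of the 128 scored from 3′ ends. The 35 sites were chosen from both kinds summed, so their agreement with each kind is partly built in. The sizes differed at some sites. 18S-Gm509 had a mean knockout score of 0 from 5′ ends and 0.375 from 3′ ends, and 18S-Um799 had 0.0352 and 0.388. For 18S-Cm797 they were 0 and 0.0349, near-complete from both. 18S-Um1804 had 0 from 5′ ends and 0.268 from 3′ ends, where WT had 0.695 and 0.795. Near-complete loss at Gm509, Um799 and Um1804 is therefore what the 5′ ends and the combined score show, and the 3′ ends show a partial loss. Among the smaller losses, the difference at 18S-Cm1391 was -0.0970 from 5′ ends against -0.229 from both, and at 5.8S-Gm75 it was -0.298 from 5′ ends and -0.109 from 3′ ends against -0.172. From 3′ ends the difference was -0.312 at 28S-Am3760, -0.209 at 28S-Gm4042, -0.0674 at 28S-Am3785 and -0.0220 at 28S-Am2814, against -0.499, -0.331, -0.122 and -0.0463 from both kinds. 18S-Um428 had the larger difference from 3′ ends, -0.230 against -0.136, although its call was lost there (adjusted p = 0.0881 in limma).

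A further wild-type background was available in the siNT libraries, which were shallower and belong to the siRNA experiment. At all 35 lower sites the 3 knockout scores were also below the 3 siNT scores, where 34.8% of the 141 sites were so placed. The mean siNT score was 0.932 at 18S-Gm509, 0.774 at 18S-Cm797, 0.906 at 28S-Cm2803 and 0.986 at 28S-Am3760, against WT means of 0.902, 0.824, 0.883 and 0.980. 28S-Am400 had a siNT mean of 0.734, and its knockout scores overlapped the siNT scores. All 3 siDHX15 scores lay below the 3 siNT scores at 22 of the 35 lower sites and at 62 of all 141. In siDHX15 the mean score was 0.894 at 18S-Gm509 and 0.961 at 28S-Am3760, but 0.236 at 18S-Cm174 and 0.485 at 18S-Cm797, where siNT had 0.698 and 0.774.

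The share of read ends on each RNA gives a rough view of RNA composition. Of 10 RNAs, 0 passed the threshold (edgeR quasi-likelihood, adjusted p under 0.05, 0%), 2 had an unadjusted p under 0.05, and limma on log2 read ends scaled by library total also called 0. 28S rRNA held 59.5%, 60.6% and 59.4% of the read ends in WT replicates 1, 2 and 3 and 60.0%, 61.1% and 62.7% in the knockout. 18S rRNA held 35.7%, 34.8% and 35.1% in WT and 35.6%, 34.8% and 32.5% in the knockout, with the lowest share in knockout replicate 3. The groups overlapped for both large rRNAs.

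5.8S rRNA and U8 were the RNAs whose groups did not overlap, 2 of 10 (20%). 5.8S rRNA held 3.13%, 3.20% and 3.73% in WT and 2.77%, 2.63% and 3.06% in the knockout, a log2 ratio of -0.25 (SE 0.0997, adjusted p = 0.169 in edgeR). U8, the box C/D RNA needed for maturation of 5.8S and 28S rRNA, held 0.0326%, 0.0323% and 0.0381% in WT and 0.0318%, 0.0239% and 0.0245% in the knockout, a log2 ratio of -0.36 (SE 0.130, adjusted p = 0.169 in edgeR). Without knockout replicate 1, the highest of its group for U8, the U8 ratio was -0.51 and passed the threshold (adjusted p = 0.0192). U3, the box C/D RNA that acts in the early cleavages towards 18S rRNA, held 0.180%, 0.188% and 0.184% in WT and 0.154%, 0.204% and 0.186% in the knockout. Among the snRNAs the log2 ratios were -0.05 for U1, 0.07 for U2, -0.40 for U4, 0.35 for U5 and -0.44 for U6, with standard errors from 0.0867 to 0.344 and overlapping groups throughout. An exact permutation test of 3 against 3 libraries cannot go below p = 0.10 (two-sided). Shares are relative, and less of one RNA cannot be told apart from more of the others.

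**Figure D5:**
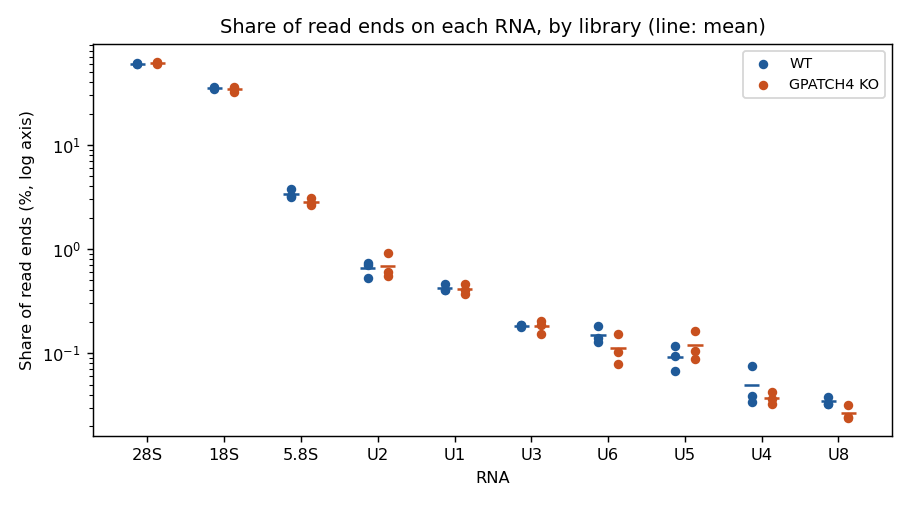
Share of read ends on each of the 10 RNAs in percent (log axis), with 1 point per WT or knockout library and a line at the mean of 3. The groups overlap at all RNAs but 5.8S and U8.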

How the data were processed

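RiboMeth-seq libraries were sequenced with an Ion Proton according to the labels, and the submitters' processing notes name cutadapt 2.0 and Bowtie2 2.3.4.1. The deposited tables give counts of read 5′ and read 3′ ends at each position of each RNA, and the authors' methylation score per replicate, a fraction. The score was recomputed from the deposited counts at the listed sites as a check. At the 8 sites beside the caps of snRNAs, and as an alternative elsewhere, the authors' deposited recalculated scores were used; the rule behind them is not given in the sources used here.

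Scores at 141 sites were fitted with limma 3.58.1 (R 4.3.3) over all 12 libraries with 4 group means, so that the groups share 1 estimate of spread. The contrast was knockout minus WT, with Benjamini-Hochberg adjustment over the 141 sites and a threshold of 0.05. Read ends summed per RNA were tested with edgeR 4.0.16 (quasi-likelihood, library size the total of read ends) over 10 RNAs. Both fits were tested on simulated data. Named were all sites past the threshold (the 20 largest separated differences with per-library scores), the 4 largest differences short of it, up to 15 listed sites within 12 positions of a called site, and per RNA up to 2 sites with the smallest differences. Alternatives covered read ends of 1 kind, the floor, the neighbours, recalculated scores, thinning, a logit scale, centring, a coverage filter, fewer libraries, blocks and edgeR. The sites, lists and tests were chosen with earlier results of these data known.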

Additional observations from a re-analysis of the deposited data

How the results depend on the processing

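The count of lower sites stayed within 1.5 times of 35 in all 19 alternatives, from 28 to 37: it was 35 from read 5′ ends alone, 28 of the 128 sites scored from read 3′ ends alone, 34 with negative scores kept, 33 with all libraries thinned to 7437847 read ends, 29 with the library index as a block and 37 in edgeR. The count of higher sites, 1 in the report, was 0 from read 5′ ends alone, from read 3′ ends alone and with the index block. It was 2 with other listed sites left out of the neighbours, with a neighbour mean of 100 or more, with only the 6 libraries fitted and in edgeR, and 13 with each library centred. Centring adds the same amount to every difference, and the median moved from -0.00607 to 0.0226. Some other settings had fewer samples or sites. What else changed these counts was not tested. Leaving out 1 library at a time gave 31 to 35 lower and 0 to 3 higher sites, and 0 to 1 RNAs with a changed share of read ends. With only the 6 libraries fitted, without the spread of the siRNA libraries, 31 sites were lower. That fit lost 5 of the 35 calls, at 18S-Am166, 28S-Am2400, 18S-Gm1447, 28S-Cm2860 and 28S-Am2814 (adjusted p = 0.0526, 0.174, 0.0867, 0.0867 and 0.0782 in limma). Calls lost with the index block included 18S-Am166, 18S-Am576 and 28S-Gm1316 (adjusted p = 0.0783, 0.136 and 0.180 in limma). The index block compares WT and knockout, which share no index, only through the siRNA libraries. 18S-Um428, 18S-Gm1447, 28S-Gm4042, 28S-Gm1624, 28S-Cm2364 and 28S-Am3785 did not pass from read 3′ ends alone, nor did 18S-Gm1447 and 28S-Gm1316 from read 5′ ends alone. The scores gave no clear sign that the replicate numbers pair the samples. The deviations of same-numbered libraries from their group means correlated at 0.120, 0.0459 and -0.000863, and WT replicate 2 correlated best with knockout replicate 3 (0.120). Weak correlations cannot show that same-numbered libraries were handled apart. With the replicate block 32 sites were lower and 1 higher, and 0 RNAs had a changed share. Coverage limits the snRNA sites, with neighbour means down to 7.59 at U4-Am65.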
